A study of Mus musculus with 7 samples.

Results

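The genes described here are 46 genes of the lysosome and of the vacuolar H+-ATPase (V-ATPase), measured by RNA-seq in tumor pieces grown from mouse fibroblasts without nuclear myosin 1 (NM1), an isoform encoded by Myo1c, and in tumor pieces grown from the same line with NM1 put back. They were chosen by name and function, with earlier results of these data known, from the 46603 genes of the count tables: 21 V-ATPase subunits and 2 accessory proteins of the pump, 7 cathepsins, 8 other hydrolases and activators, 5 membrane, lipid transport and channel proteins, and the 3 transcription factors Tfeb, Tfe3 and Mitf. All 46 passed the filter on low counts, by which 16887 genes were tested.

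Both groups derive from the mouse embryonic fibroblast line ATCC CRL-2752 in which NM1 had been deleted by CRISPR/Cas9. The KO cells carry that deletion alone, and the KO+NM1 cells carry it together with a lentiviral NM1-HA-V5 coding sequence, kept by neomycin selection and taken as single clones. The cells were injected into female nude mice, Balb/c in the study's methods, 16 weeks of age, 5 mice a group, and tumors were removed after 30 days per the labels or 28 days per the methods, which place the injection in the right flank while the results speak of mammary pads. Per the labels the KO tumor and the KO+NM1 tumor were each cut into 4 pieces, with RNA sequenced from 3 KO pieces (01 to 03) and 4 KO+NM1 pieces (01 to 04). Pieces of 1 tumor are not separate animals, so every p-value below measures the spread between pieces, and the injected line, its clone and the tumor cannot be told apart from the presence of NM1. Host cells were not removed, and in such bulk RNA fewer cells of a type and less RNA per cell cannot be told apart.

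Some facts of the whole libraries bear on what follows. The pieces held 24088309 to 28326568 counts, of which mitochondrially encoded genes took 1.81 to 2.14% in KO and 5.11 to 18.5% in KO+NM1. Myo1c, the targeted gene, stood at 289 to 313 CPM, counts scaled to the TMM-adjusted library size, in KO and at 382 to 438 CPM in KO+NM1, and since a gene-level count pools NM1 with the other isoforms this does not check the deletion. Fibroblast markers, the type of the injected cells, summed to 7067 to 12821 CPM in KO and 2690 to 12704 CPM in KO+NM1. Most of that sum was Col1a1, Col1a2 and Col3a1. Of the 6 genes, Pdgfra, Dcn and Lum were lower in KO and 0 were higher by edgeR (adjusted p under 0.05). Col1a1 had 3441 to 5827 CPM in KO and 589 to 2331 CPM in KO+NM1 without passing (edgeR adjusted p = 0.0514). Marker sums of host tissues differed widely: 7 white adipocyte genes summed to 28.9 to 173 CPM in KO and 3726 to 28488 CPM in KO+NM1, and 6 skeletal muscle genes to 1938 to 17528 CPM in KO and 5.78 to 24.7 CPM in KO+NM1. KO+NM1 piece 01 stood apart from its group with 3504 CPM over 4 B cell genes, against 2.75 to 14.2 CPM in KO+NM1 pieces 02 to 04, so counts of calls are also given without it.

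As background, the lysosome is the acidic compartment in which cells break down proteins, lipids and glycans. Its acid is made by the V-ATPase, a rotary proton pump whose cytosolic V1 sector hydrolyses ATP and whose membrane V0 sector carries protons, and several of its subunits exist as paralogs that are used in different tissues. Many lysosomal genes carry a palindromic E-box, known as the CLEAR element, in their promoters, to which TFEB, TFE3 and MITF bind.

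The promoters show how widely the core of that box, and longer words around it, occur among these genes. RefSeq windows on GRCm38.p6, from 250 bases before to 50 bases after an annotated start, were found for 37 of the 46 members. The core CACGTG, which reads the same on both strands, was present in the window of 11 of the 37 (29.7%), against 8.09% of 27025 genes with such a window. The longer TCACGTG, searched on both strands, was present in 10 members (27.0%, against 4.29% of genes), and the full 8-base palindrome TCACGTGA in 7 (18.9%, against 1.12%). These 3 searches overlap, each longer word holding the shorter one. The longer palindrome with a further G before it and C after it was in none of the 37 and in 0.370% of genes. Members with the core were Atp6v1a, Atp6v0b, Atp6v0d1, Atp6v0e, Ctsa, Ctsd, Ctsl, Gla, Glb1, Lamp1 and Mcoln1. Windows of 3 of these are given, 5′ to 3′ on the strand of the gene, with capitals on the core and on the flanking T and A where both are present: Lamp1 (chr8:13158911-13159210, plus strand) because it holds 4 cores, Gla (chrX:134600956-134601255, minus strand) because it is the one hydrolase past both thresholds below, and Mcoln1 (chr8:3500269-3500568, plus strand), a channel gene whose level barely differed between the groups. A match is a description of these letters, not evidence that a factor binds. Since the box is known from lysosomal genes, its higher share in a list of such genes is no separate finding.
Lamp1: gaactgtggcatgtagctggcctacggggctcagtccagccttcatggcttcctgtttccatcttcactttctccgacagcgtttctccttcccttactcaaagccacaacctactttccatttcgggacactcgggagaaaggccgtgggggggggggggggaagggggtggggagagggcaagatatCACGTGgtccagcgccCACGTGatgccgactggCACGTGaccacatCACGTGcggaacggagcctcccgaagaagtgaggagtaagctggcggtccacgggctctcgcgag
Gla: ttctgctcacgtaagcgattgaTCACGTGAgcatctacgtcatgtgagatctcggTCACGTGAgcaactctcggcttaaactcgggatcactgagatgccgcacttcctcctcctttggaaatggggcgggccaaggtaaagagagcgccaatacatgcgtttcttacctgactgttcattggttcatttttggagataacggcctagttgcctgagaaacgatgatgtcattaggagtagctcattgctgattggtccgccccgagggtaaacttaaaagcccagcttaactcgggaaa
Mcoln1: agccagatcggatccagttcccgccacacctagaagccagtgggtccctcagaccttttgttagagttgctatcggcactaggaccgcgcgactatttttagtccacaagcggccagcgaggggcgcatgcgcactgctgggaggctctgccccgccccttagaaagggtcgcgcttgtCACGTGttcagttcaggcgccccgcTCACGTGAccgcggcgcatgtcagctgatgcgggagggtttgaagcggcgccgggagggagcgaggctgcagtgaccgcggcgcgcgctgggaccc

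**Figure D1:**
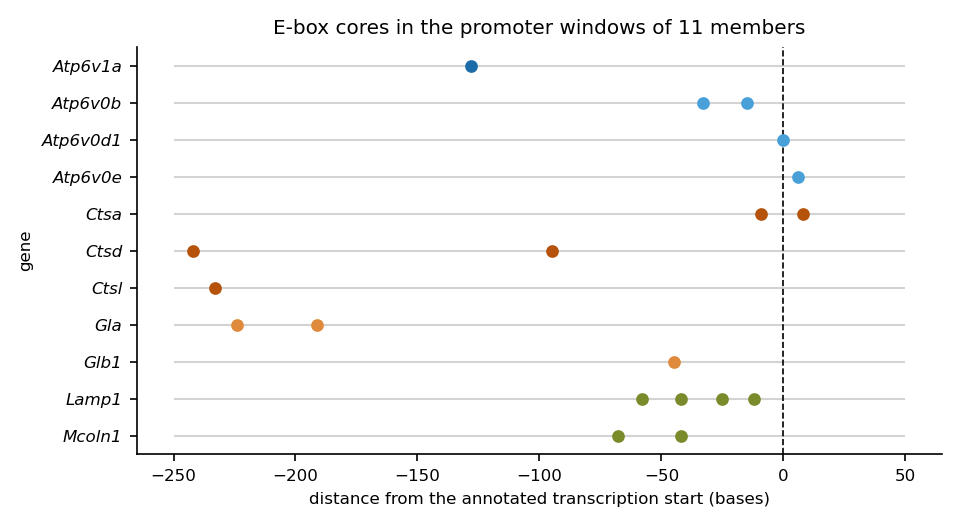
Positions of the CACGTG core in the promoter windows of the 11 members that hold it, with the distance from the annotated transcription start in bases on the horizontal axis and 1 line per gene. Each point is the centre of 1 core, coloured by the role of the gene as in the plot of fold changes. Lamp1 has 4 cores close before its start, while those of Gla lie near the far end of the window.

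Holding the core did not go with a change in one direction. The median log2 fold change (KO minus KO+NM1 throughout, so that positive values are higher in KO) was -0.20 over the 11 members with the core and 0.47 over the other matched members, given here as a description.

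Most of the 46 genes differed little between KO and KO+NM1. By edgeR's quasi-likelihood test, 4 members were higher in KO (Atp6v0a4, Tcirg1, Atp6v0d2 and Gla) and 1 was lower (Atp6v1b1) with a Benjamini-Hochberg adjusted p under 0.05 and at least a 2-fold change. Atp6v1b1 (2, 9 and 9 counts in KO) and Atp6v0a4 (0, 1, 0 and 0 counts in KO+NM1) passed the filter on low counts only through the group where they are high. Their entry into the test was therefore not separate from the difference tested. These 5 are 10.9% of the members, where 37.3% of all 16887 genes tested passed both thresholds (17.1% higher, 20.3% lower). By adjusted p alone 15 members were higher and 5 lower, or 43.5%, against 50.2% of all genes (25.7% higher, 24.5% lower). The median log2 fold change of the members was 0.22 and that of all genes -0.00, and the median absolute log2 fold change was 0.60 for the members and 0.89 for all genes. In 39 of the 46 the change was under 2-fold. The pieces of the groups did not overlap in 30 members, 20 higher and 10 lower in KO, which is 65.2% against 57.0% of all genes (30.5% higher, 26.4% lower).

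**Figure D2:**
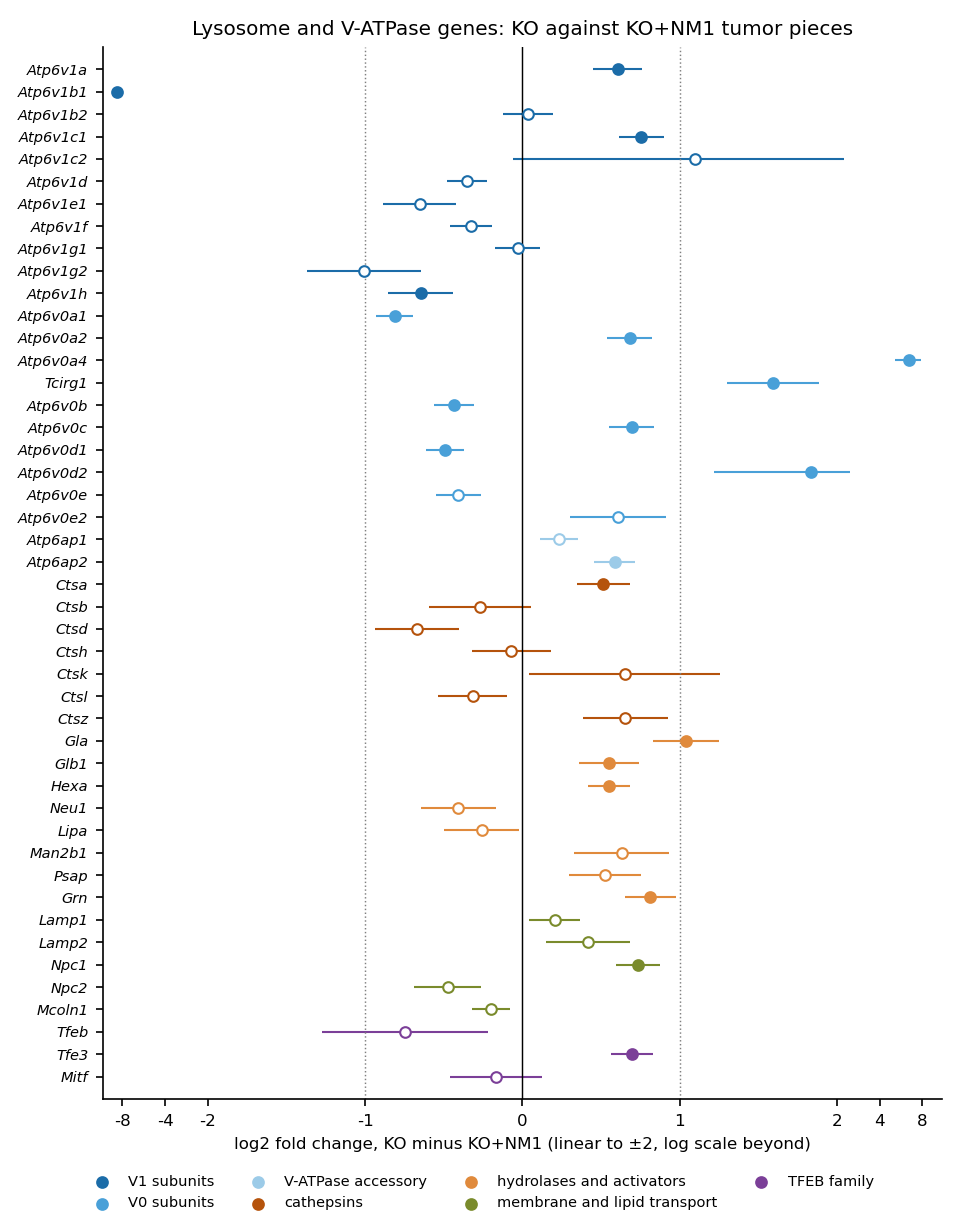
log2 fold change of each of the 46 members, KO minus KO+NM1, on an axis that is linear to ±2 and logarithmic beyond. Points are coloured by role, filled where the adjusted p is under 0.05, bars are the standard error of the fit (hidden by the point for Atp6v1b1), and dotted lines mark 2-fold. Apart from Atp6v1b1 on the left and Atp6v0a4, Tcirg1 and Atp6v0d2 on the right, the filled points lie at or inside about 2-fold.

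The split by adjusted p depended on the scaling and on single pieces. With DESeq2's size factors 13 members were higher and 10 lower, while with library size alone 13 were higher and 2 lower, and these scalings moved the median of all genes by -0.10 and 0.17. With these scalings 50.2 and 47.8% of all genes were called. Without KO+NM1 piece 01 the test called 18 higher and 18 lower, where 71.8% of all genes were then called. Leaving out KO piece 01, 02 or 03 left 7, 8 and 7 higher and 4, 3 and 3 lower, and leaving out KO+NM1 piece 02 left 12 higher and 3 lower. Of all genes, 35.4, 38.1 and 35.6% were called without those KO pieces and 40.7% without KO+NM1 piece 02. Past both thresholds the counts were 4 higher and 1 lower without KO+NM1 piece 01 or 02, 2 higher and 1 lower without any KO piece or without KO+NM1 piece 04, and 2 higher and 2 lower without KO+NM1 piece 03. The share of all genes past both thresholds is given here for the main fit only. These counts therefore cannot be read as a change particular to the members. Atp6v1b1, Atp6v0a4 and Tcirg1 passed both thresholds in each of the 14 alternatives tried.

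**Figure D3:**
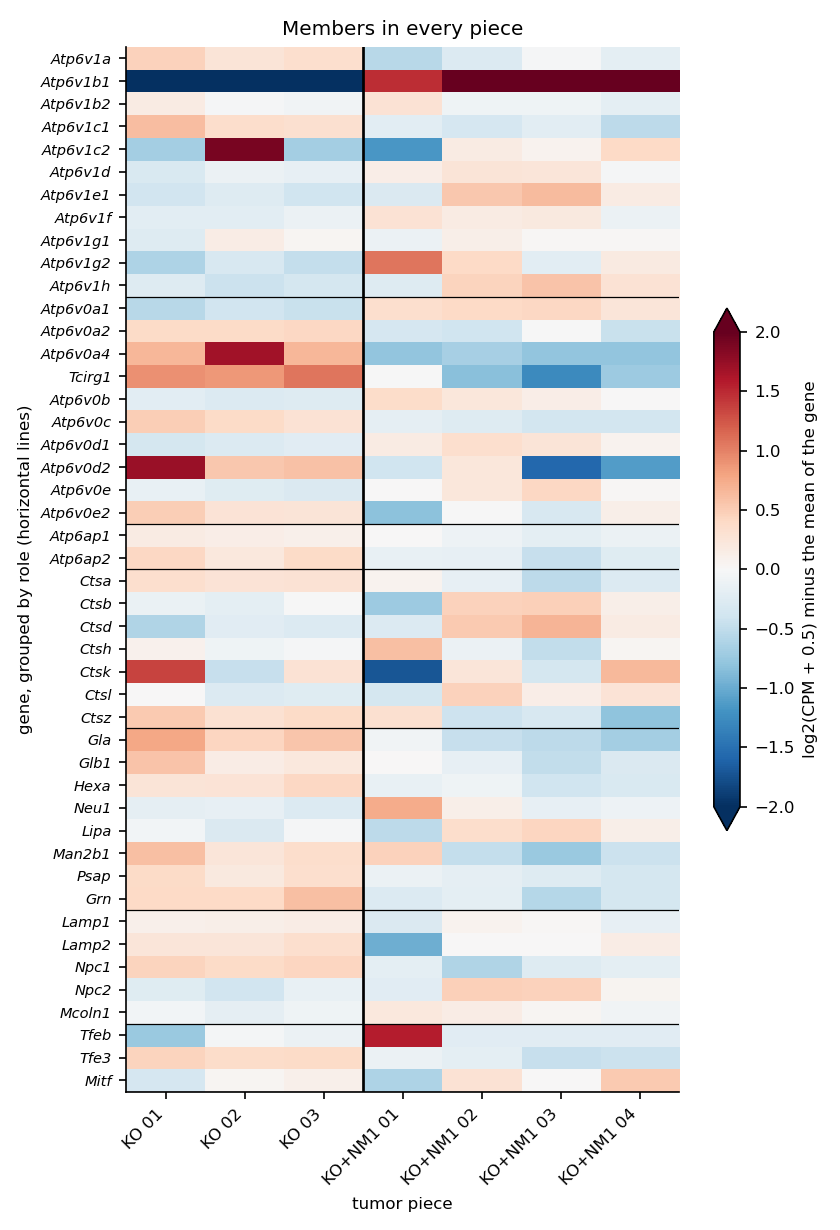
Each member in each of the 7 pieces as log2(CPM + 0.5) minus the mean of the gene over the pieces, with genes grouped by role between the horizontal lines and the groups divided by the vertical line. Colours are capped at ±2. Most rows are pale, the rows of Atp6v1b1, Tcirg1, Atp6v0a4 and Atp6v0d2 are not, and KO+NM1 piece 01 departs from its group in Tfeb, Lamp2, Ctsk and Neu1.

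Among the 11 genes of the V1 sector, 2 were higher and 2 lower in KO by adjusted p (36.4%, against 50.2% of all genes). The catalytic A subunit gene Atp6v1a stood at 140, 121 and 129 CPM in KO and at 68.8, 83.7, 100 and 88.8 CPM in KO+NM1 (log2 fold change 0.60, SE 0.16, adjusted p = 0.0160), and passed no longer without KO piece 01, 02 or 03 or KO+NM1 piece 02 (adjusted p = 0.129, 0.0810, 0.105 and 0.0514). Atp6v1c1, the widely expressed C subunit, was higher in KO in every piece, with 109, 90.9 and 88.5 CPM against 61.1, 56.4, 61.5 and 49.1 CPM (log2 fold change 0.75, SE 0.14, adjusted p = 0.00446). Atp6v1h, the regulatory H subunit, was lower in KO at 53.8 to 60.3 CPM against 60.5 to 108 CPM (log2 fold change -0.65, adjusted p = 0.0370), a call lost without any one of the pieces except KO+NM1 piece 01 (adjusted p between 0.0620 and 0.0840). The stalk subunit genes Atp6v1d, Atp6v1e1, Atp6v1f and Atp6v1g1 gave log2 fold changes of -0.35, -0.65, -0.32 and -0.03 and did not pass with all pieces kept (adjusted p = 0.0535, 0.0519, 0.0823 and 0.873). Without KO+NM1 piece 01, where 71.8% of all genes were called, the first 3 were lower in KO by edgeR. Their log2 fold changes were then -0.49, -0.94 and -0.40 (adjusted p = 0.00639, 0.000831 and 0.0134), and Atp6v1g1 did not pass (adjusted p = 0.182).

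The B subunit, which shares the ATP-binding sites with A, showed the largest difference of all members. Atp6v1b1, the B1 paralog known from kidney intercalated cells and other acid-secreting epithelia, had 0.0667, 0.313 and 0.297 CPM in the KO pieces, from 2, 9 and 9 counts. The KO+NM1 pieces had 30.2, 121, 93.0 and 162 CPM. No KO piece came near the lowest KO+NM1 piece, and the log2 fold change of -8.79 (SE 0.72, adjusted p = 0.000582) ranged from -9.22 to -8.47 over the alternatives. Atp6v1b2, the B2 paralog of most cells, had 144, 126 and 122 CPM in KO and 157, 121, 120 and 112 CPM in KO+NM1. Those ranges overlap (log2 fold change 0.04, SE 0.16, adjusted p = 0.864, and negative under DESeq2's size factors at -0.06). Per kilobase of exon, B1 therefore made up 0.216 ± 0.139% (SD, n = 3) of the B-subunit signal in KO and 46.4 ± 19.3% (n = 4) in KO+NM1, with 18.9% in piece 01 and 48.3 to 63.6% in the other KO+NM1 pieces. The summed B-subunit level was 24.7 ± 2.20 CPM per kb in KO and 47.2 ± 9.22 CPM per kb in KO+NM1.

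Markers of other cell types also differed between the groups. Foxi1, the forkhead factor that marks intercalated cells and ionocytes, had 0, 1 and 0 counts in KO and 8.32, 23.1, 19.5 and 35.8 CPM in KO+NM1, with piece 01 the lowest and piece 04 the highest as for Atp6v1b1. Over the list of 7 intercalated cell or ionocyte markers the sum was 0.693 to 1.81 CPM in KO and 8.75 to 37.0 CPM in KO+NM1, nearly all of it Foxi1, and of the 2 markers that passed the filter Foxi1 was lower in KO (adjusted p = 0.000496) and Rhbg did not pass. Slc4a1, Slc4a9, Slc26a4, Rhcg and Aqp6, defining transporters of those cells, were at or near 0 in both groups. Of 6 epithelial markers, 3 were lower in KO (Epcam, Krt8 and Cdh1), and the list summed to 27.3 to 623 CPM in KO and 325 to 1645 CPM in KO+NM1. The 5 brown and 7 white adipocyte markers and the 4 endothelial markers were all lower in KO as well. Among KO+NM1 pieces 01 to 04 the epithelial sum was 325, 1232, 1025 and 1645 CPM. The fibroblast sum was 2690, 11275, 7313 and 12704 CPM. Both kept the order of Atp6v1b1 among these pieces, and the adipocyte and endothelial sums did not. An order of 4 pieces of 1 tumor, seen among several lists, is a description and singles out no cell type. The brown adipocyte sum was lowest in piece 04 at 293 CPM and the endothelial sum was highest in piece 03 at 1113 CPM. The part of any of these cell types in the Atp6v1b1 result was not tested. The Atp6v1b1 promoter window (chr6:83742767-83743066, plus strand) is given because this gene carries the largest difference. It holds no CACGTG and holds 1 forkhead core TGTTTA (in capitals, a motif searched on both strands after the Foxi1 values were seen), which occurs in 4 of 37 members (10.8%) and in 15.1% of genes. A related word that was also searched, TGTTTG, is not in this window. It occurs in 9 of 37 members (24.3%) and in 20.4% of genes.
Atp6v1b1: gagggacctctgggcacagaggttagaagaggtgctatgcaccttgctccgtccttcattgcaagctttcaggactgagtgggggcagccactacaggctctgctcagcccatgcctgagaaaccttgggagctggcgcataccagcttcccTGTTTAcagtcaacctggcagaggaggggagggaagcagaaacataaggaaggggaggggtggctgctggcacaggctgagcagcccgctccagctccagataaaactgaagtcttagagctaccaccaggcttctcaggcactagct

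**Figure D4:**
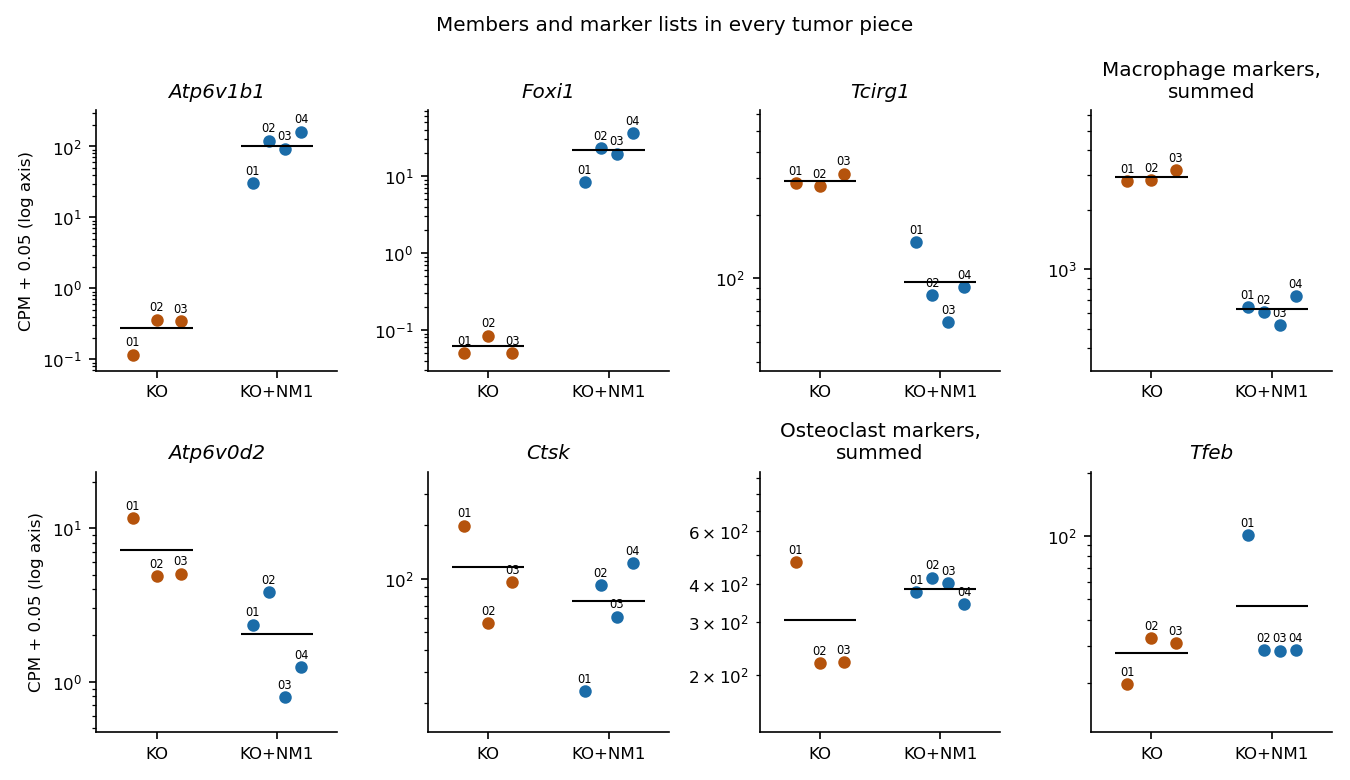
CPM (log axis, 0.05 added) of Atp6v1b1, Foxi1, Tcirg1, Atp6v0d2, Ctsk and Tfeb and the summed CPM of the macrophage and osteoclast marker lists, with 1 point per piece numbered as in the text and a line at the mean. Atp6v1b1 and Foxi1 keep the same order among the KO+NM1 pieces, Tcirg1 and the macrophage sum are higher in every KO piece, and single pieces set the means of Atp6v0d2, Ctsk, the osteoclast sum and Tfeb.

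The remaining V1 paralogs were minor and did not pass the test. Atp6v1c2, the C2 paralog of epithelia, had 0.300, 4.28 and 0.297 CPM in KO and 0.0729, 0.936, 0.840 and 1.19 CPM in KO+NM1. The mean of KO rests on piece 02, and the log2 fold change of 1.09 (SE 1.16, adjusted p = 0.457) became -1.45 without it. Atp6v1g2, the G2 paralog best known from neurons, had 2.73, 3.44 and 3.04 CPM in KO and 9.85, 5.98, 3.76 and 5.10 CPM in KO+NM1 (log2 fold change -1.01, SE 0.36, adjusted p = 0.0578), just outside the threshold although the pieces did not overlap. Without KO+NM1 piece 03 it passed both thresholds (log2 fold change -1.20, adjusted p = 0.0326), and without KO+NM1 piece 01 the adjusted p was 0.0206 at a log2 fold change of -0.81. Its exons overlap those of Nfkbil1, those of Atp6v1c2 overlap Pdia6, those of Atp6v1e1 overlap Slc25a18 and those of Atp6v1h overlap Rgs20, so reads of these pairs may have been mixed. Atp6v1g1, the main G paralog, had 95.7, 127 and 117 CPM in KO and 106, 125, 117 and 116 CPM in KO+NM1.

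In the V0 sector 5 of 10 genes were higher and 3 lower in KO by adjusted p, against 25.7% and 24.5% of all genes, and in all 10 the pieces of the groups did not overlap, against 57.0% of all genes. The a subunit, which holds the proton half-channels and steers the pump to its membrane, has 4 paralogs, and they differed in opposite directions. Tcirg1, the a3 paralog of lysosomes in osteoclasts and macrophages, had 282, 273 and 314 CPM in KO and 149, 83.2, 61.6 and 90.7 CPM in KO+NM1. Every KO piece was above every KO+NM1 piece, of which 01 was the highest (log2 fold change 1.59, SE 0.29, adjusted p = 0.00402, with 1.42 to 1.88 over the alternatives). Atp6v0a1, the broadly used a1 paralog, went the other way with 64.3, 72.6 and 69.3 CPM in KO and 120, 125, 127 and 112 CPM in KO+NM1 (log2 fold change -0.81, SE 0.12, adjusted p = 0.00173). Atp6v0a2, the a2 paralog of the Golgi and endosomes, had 89.8, 90.1 and 92.1 CPM against 54.5, 52.0, 68.8 and 50.6 CPM (log2 fold change 0.68, SE 0.14, adjusted p = 0.00688, but 0.0533, 0.0574 and 0.0641 without KO piece 01, 02 or 03). Atp6v0a4, the a4 paralog that pairs with B1 in kidney, had 0.867, 2.26 and 0.859 CPM in KO and a single count over the 4 KO+NM1 pieces, in piece 02.

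Atp6v0a4 thus lay low in both groups and on the opposite side from Atp6v1b1. The ratio of its 117 counts in KO to the 1 count in KO+NM1, scaled by the TMM-adjusted library sizes, is 127-fold with a 95% counting interval of 22.3 to 5053, which covers counting error only (adjusted p = 0.00141 by edgeR). Its exons overlap Tmem213 and D630045J12Rik, and those of Atp6v0a2 overlap 4930404A12Rik.

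Within the a family the composition shifted toward a3 in KO. Per kilobase of exon Tcirg1 made up 72.4, 70.4 and 73.6% of the a-subunit signal in the KO pieces and 55.0, 40.3, 31.2 and 44.5% in KO+NM1. The means were 72.2 ± 1.60% and 42.8 ± 9.90%, and the summed a-subunit level was 87.2 ± 4.72 CPM per kb in KO and 47.7 ± 7.36 CPM per kb in KO+NM1. Macrophage markers moved with it: 7 of 9 were higher in KO and Cd14 was lower, none was at 0, and the list summed to 2776 to 3161 CPM in KO and to 524 to 734 CPM in KO+NM1. Their part in the Tcirg1 result was not tested. Tcirg1 was highest of the KO+NM1 pieces in piece 01, where the macrophage sum of 644 CPM lay between those of pieces 02 and 04.

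**Figure D5:**
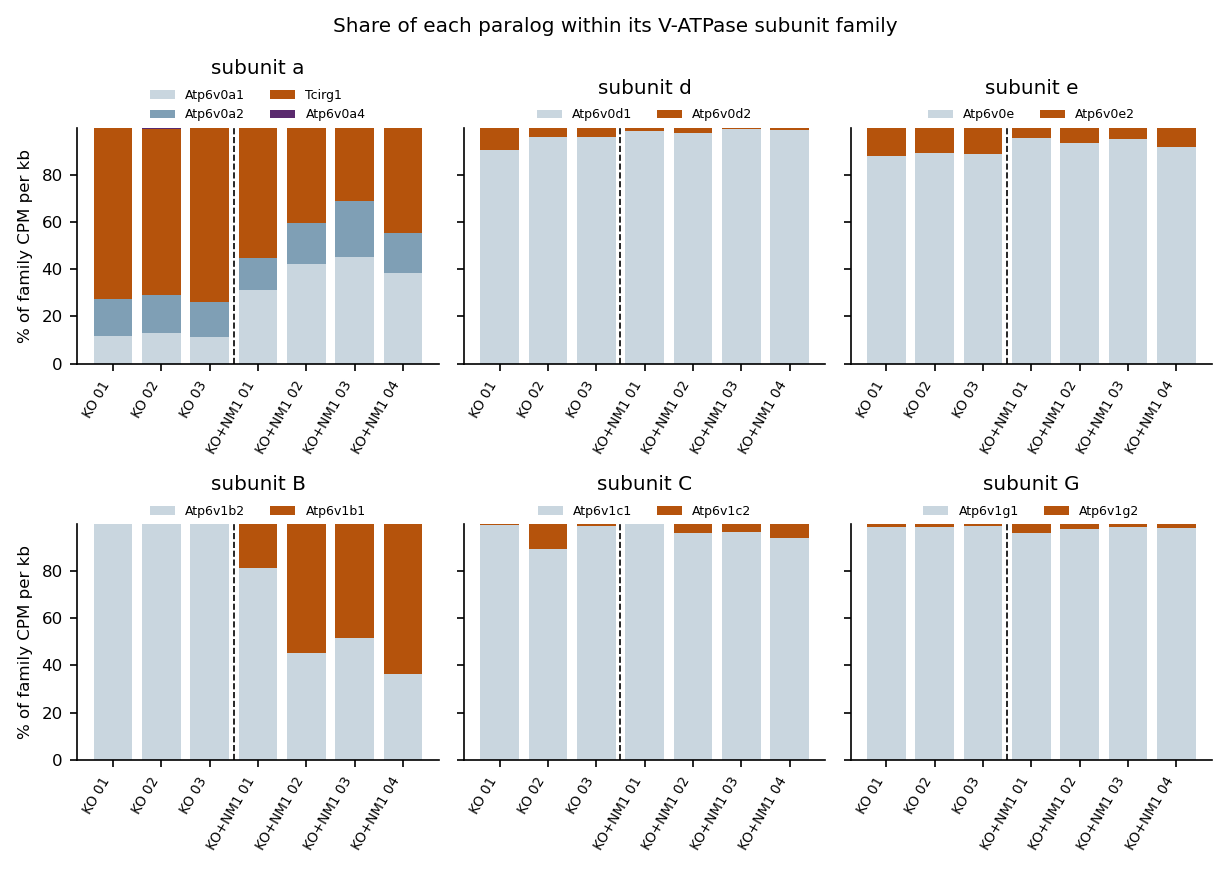
Share of each paralog in the summed CPM per kb of its V-ATPase subunit family, in percent, for the 6 families with paralogs, with 1 bar per piece and a dashed line between KO and KO+NM1. The Tcirg1 part of subunit a is 70.4 to 73.6% in KO and 31.2 to 55.0% in KO+NM1, and Atp6v1b1 is visible in subunit B in the KO+NM1 pieces only.

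The d subunit links the rotor of V0 to the stalk. Its common form, Atp6v0d1, was lower in KO with 72.2, 76.5 and 79.0 CPM against 103, 117, 111 and 96.9 CPM (log2 fold change -0.49, SE 0.12, adjusted p = 0.0132). Atp6v0d2, the paralog known from osteoclasts and macrophages, had 11.7, 4.83 and 5.02 CPM in KO and 2.30, 3.78, 0.741 and 1.19 CPM in KO+NM1. KO piece 01 was above the sum of KO pieces 02 and 03, and the groups came close at 4.83 and 3.78 CPM. The log2 fold change of 1.83 (SE 0.61, adjusted p = 0.0417) fell to 1.19 without KO piece 01, with an adjusted p of 0.197, and the call was also lost without KO piece 02 or 03 or KO+NM1 piece 03 or 04 (adjusted p = 0.0683, 0.0764, 0.0739 and 0.100). In KO piece 01 the osteoclast genes Ocstamp, Dcstamp, Oscar, Mmp9 and Acp5 stood at 3.73, 5.33, 1.97, 216 and 165 CPM, against 0.452 and 0.462, 1.15 and 1.82, 0.243 and 0.165, 102 and 97.5, and 44.7 and 47.7 CPM in KO pieces 02 and 03. Itgb3 (16.6, 6.19 and 10.2 CPM) and Calcr (8, 1 and 1 counts) were also highest in KO piece 01. Nfatc1 was flat over the KO pieces at 63.3, 63.6 and 62.6 CPM. Between the groups Acp5 and Itgb3 ran opposite to Atp6v0d2 without passing (log2 fold change -1.65 and -1.75, edgeR adjusted p = 0.0579 and 0.0959). Ocstamp, Dcstamp, Nfatc1 and Mmp9 had positive log2 fold changes (1.81, 1.27, 0.15 and 2.74). KO+NM1 piece 01 weighed on 2 of these genes. Itgb3 stood at 94.5 CPM there and at 16.2, 17.8 and 19.6 CPM in KO+NM1 pieces 02 to 04. Nfatc1 stood at 138 CPM there and at 30.6, 29.0 and 30.0 CPM in KO+NM1 pieces 02 to 04. Acp5 had 112, 358, 342 and 266 CPM in KO+NM1 pieces 01 to 04. Over the 8 osteoclast markers the sum was 219 to 472 CPM in KO and 343 to 421 CPM in KO+NM1, with 1 of 6 tested markers higher in KO (Mmp9) and none lower by edgeR's adjusted p (1 at its unadjusted p under 0.05, 2 each by DESeq2 and voom), and their part in the Atp6v0d2 result was not tested. The d2 share of the d family was 5.89 ± 3.25% in KO and 1.20 ± 0.730% in KO+NM1.

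Other V0 genes moved by less. The proteolipid ring gene Atp6v0c was higher in KO (30.4, 28.4 and 26.4 CPM against 19, 18.0, 16.6 and 16.5 CPM, log2 fold change 0.69, adjusted p = 0.00634, but 0.0541 and 0.0515 without KO piece 01 or 02), and its companion Atp6v0b was lower (77.8, 74.1 and 75.1 CPM against 116, 105, 98.6 and 90.4 CPM, log2 fold change -0.44, adjusted p = 0.0259), the second not without KO piece 02 or 03 or KO+NM1 piece 02 (adjusted p = 0.0506, 0.0512 and 0.0556). An antisense gene, Gm12841, overlaps its exons. The small e subunit gene Atp6v0e had 82.4, 77.5 and 74.8 CPM in KO and 91.9, 108, 123 and 93.0 CPM in KO+NM1 (log2 fold change -0.41, adjusted p = 0.0516). Without KO+NM1 piece 01 Atp6v0e was lower in KO by edgeR (log2 fold change -0.59, adjusted p = 0.00393). Its paralog Atp6v0e2 had 7.10, 6.05 and 6.01 CPM and 2.59, 4.92, 3.85 and 5.39 CPM (log2 fold change 0.61, adjusted p = 0.136). Of the accessory proteins, Atp6ap2, also known as the prorenin receptor, was higher in KO (117, 101 and 114 CPM against 78.7, 77.7, 63.6 and 73.9 CPM, log2 fold change 0.59, adjusted p = 0.00855, but 0.0717 and 0.0743 without KO piece 01 or 03). Atp6ap1, an assembly factor of the pump, gave 0.23 (adjusted p = 0.143).

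The paralog shares were compared by exact permutation tests over the 35 ways to split the pieces, in which the smallest two-sided p is 0.0571, so 0.05 could not be reached. Tcirg1, Atp6v0d2, Atp6v0e2, Atp6v1b1 and Atp6v1g2 each gave that p (0.0686 adjusted over the 6 families), no share of one group lying within the range of the other. The share of Atp6v0e2 was 11.3 ± 0.512% in KO and 5.96 ± 1.88% in KO+NM1, and that of Atp6v1g2 was 1.21 ± 0.0589% and 2.39 ± 1.14%. Atp6v1c2 gave 4.12 ± 5.79% and 3.42 ± 2.33% (exact p = 0.800), a difference whose sign turned without KO piece 02 or KO+NM1 piece 01. Summed over paralogs, the a and C families were higher in KO in every piece and the d, e and B families lower (exact p = 0.0571 each), while the G family stood at 101 ± 14.3 and 105 ± 6.18 CPM per kb (exact p = 0.743). Atp6v1b1, Atp6v1g2, Tcirg1, Atp6v0d2 and Atp6v0a4 were also drawn by the study in a heat map made from these libraries, so their differences here are not independent evidence.

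The lysosomal enzymes and membrane proteins differed by less than 2-fold with the exception of Gla. Of the 20 members outside the pump and the transcription factors, 6 were higher and none was lower in KO by adjusted p (30.0% in all, against 25.7% higher and 24.5% lower over all genes), with a median log2 fold change of 0.46. Lower members numbered 1 by edgeR's unadjusted p under 0.05, 3 by DESeq2's Wald test, 7 by voom with quality weights and 7 by edgeR without KO+NM1 piece 01. Of all genes, 30.7% were lower by the Wald test, 35.2% by voom and 36.0% by edgeR without that piece. Of the 8 hydrolases and activators 4 were higher, where 25.7% of all genes were. Gla, the alpha-galactosidase A that is deficient in Fabry disease, had 26.4, 20.8 and 22.7 CPM in KO and 14.5, 10.9, 10.5 and 9.37 CPM in KO+NM1. All KO pieces were above all KO+NM1 pieces (log2 fold change 1.04, SE 0.21, adjusted p = 0.00565), and the value lies at the 2-fold threshold, under it at 0.94 with DESeq2's size factors and at 0.83 without KO piece 01. Grn, the precursor of the granulins, had 580, 578 and 669 CPM against 364, 383, 295 and 345 CPM (log2 fold change 0.81, SE 0.16, adjusted p = 0.00540, but 0.0521 without KO piece 03). Hexa, the alpha chain of beta-hexosaminidase, had 189, 190 and 210 CPM against 142, 148, 119 and 127 CPM (log2 fold change 0.55, SE 0.13, adjusted p = 0.0120, but 0.0688, 0.0807 and 0.118 without KO piece 01, 02 or 03). Glb1, the lysosomal beta-galactosidase, had 35.5, 26.4 and 27.6 CPM against 24.0, 21.2, 16.7 and 19.5 CPM (log2 fold change 0.55, SE 0.19, adjusted p = 0.0443), a call that was lost when any piece other than KO+NM1 piece 01 was left out (adjusted p between 0.0903 and 0.284). Exons of Grn overlap Fam171a2, those of Hexa overlap Tmem202 and those of Glb1 overlap Tmppe.

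The other 4 members of that set did not pass with all pieces kept. Without KO+NM1 piece 01 all 4 passed by edgeR, where 71.8% of all genes were called. Psap and Man2b1 were then higher in KO (log2 fold change 0.44 and 0.83, adjusted p = 0.0375 and 0.00107). Neu1 and Lipa were lower (-0.29 and -0.55, adjusted p = 0.0356 and 0.00564). Psap, the precursor of the saposins and among the most abundant members, had 3836, 3343 and 3685 CPM in KO and 2708, 2602, 2447 and 2303 CPM in KO+NM1, without overlap but with an adjusted p of 0.0920. Man2b1, the lysosomal alpha-mannosidase, had 239, 187 and 202 CPM against 216, 114, 93.6 and 117 CPM, with KO+NM1 piece 01 inside the KO range (adjusted p = 0.118). Neu1, the lysosomal sialidase, and Lipa, the acid lipase, gave log2 fold changes of -0.41 and -0.26 (adjusted p = 0.196 and 0.401).

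Among the cathepsins, the proteases of the lysosome, only the serine carboxypeptidase Ctsa passed with all pieces kept. It had 307, 294 and 295 CPM in KO and 253, 215, 168 and 200 CPM in KO+NM1 (log2 fold change 0.51, SE 0.17, adjusted p = 0.0376), and the call was lost without any single piece except KO+NM1 piece 01 (adjusted p between 0.0719 and 0.191). Its exons overlap Neurl2 and Pltp, as those of Ctsb overlap Fdft1 and those of Ctsz overlap Nelfcd. Ctsd, the main aspartic protease of the lysosome, had 567, 738 and 713 CPM in KO and 710, 1230, 1374 and 968 CPM in KO+NM1 (log2 fold change -0.67, SE 0.27, adjusted p = 0.0779). Ctsb and Ctsl, broadly expressed cysteine proteases, had 1351 to 1544 and 326 to 399 CPM in KO and 940 to 2159 and 309 to 543 CPM in KO+NM1, and in Ctsb, Ctsd and Ctsl KO+NM1 piece 01 was the lowest of its group. Ctsk, the collagen-degrading protease of osteoclasts, had 199, 56.5 and 95.7 CPM in KO and 23.3, 91.9, 61.2 and 122 CPM in KO+NM1. Its highest value was in KO piece 01, as for Atp6v0d2, and its log2 fold change of 0.65 (SE 0.61, adjusted p = 0.403) was -0.08 without that piece. Ctsz gave 0.65 (adjusted p = 0.0794) and Ctsh -0.07 (adjusted p = 0.838). Without KO+NM1 piece 01, Ctsb, Ctsd and Ctsl were lower in KO by edgeR (log2 fold change -0.60, -0.95 and -0.58, adjusted p = 0.0135, 0.00314 and 0.00656). Ctsz was higher (0.78, adjusted p = 0.00311), and Ctsh and Ctsk did not pass (adjusted p = 0.799 and 0.673).

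Of the 5 membrane and lipid transport genes, Npc1 alone was higher in KO by adjusted p. This cholesterol exporter had 76.4, 73.1 and 75.3 CPM in KO and 48.7, 36.6, 46.6 and 48.5 CPM in KO+NM1 (log2 fold change 0.73, SE 0.14, adjusted p = 0.00466), though its exons overlap Rmc1. Npc2, its soluble partner, had 331, 298 and 353 CPM against 335, 541, 538 and 407 CPM (log2 fold change -0.48, SE 0.21, adjusted p = 0.104). Without KO+NM1 piece 01 Npc2 was lower in KO by edgeR (log2 fold change -0.73, adjusted p = 0.00401). The 2 main glycoproteins of the lysosomal membrane were close between the groups: Lamp1 had 696, 698 and 713 CPM against 527, 680, 656 and 574 CPM (log2 fold change 0.20, SE 0.16, adjusted p = 0.333), with exons that overlap Grtp1. Lamp2 had 294, 295 and 312 CPM against 126, 249, 250 and 275 CPM, with KO+NM1 piece 01 far below the rest (log2 fold change 0.42, SE 0.27, adjusted p = 0.233). Mcoln1, the lysosomal calcium channel whose promoter is given above, had 47.0, 43.1 and 45.8 CPM against 56.6, 54.5, 50.3 and 46.4 CPM (log2 fold change -0.20, SE 0.12, adjusted p = 0.217). Without KO+NM1 piece 01 its log2 fold change was -0.28 (edgeR adjusted p = 0.0290), while Lamp1 and Lamp2 did not pass (adjusted p = 0.925 and 0.414).

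The transcription factors that bind the E-box did not move together. Tfe3 was higher in KO in every piece, with 112, 106 and 106 CPM against 75.4, 71.7, 59.1 and 60.8 CPM (log2 fold change 0.70, SE 0.13, adjusted p = 0.00484). Tfeb had 19.7, 32.7 and 30.9 CPM in KO and 101, 28.5, 28.4 and 28.6 CPM in KO+NM1. Apart from KO+NM1 piece 01, the piece rich in B cell transcripts, its pieces overlap, and the log2 fold change of -0.75 (SE 0.52, adjusted p = 0.281) was -0.16 without that piece (adjusted p = 0.476). Mitf, known from melanocytes, mast cells and osteoclasts, had 15.4, 20.0 and 20.9 CPM against 12.5, 23.8, 19.7 and 28.2 CPM (log2 fold change -0.17, SE 0.29, adjusted p = 0.659). Without KO+NM1 piece 01 its log2 fold change was -0.48 (edgeR adjusted p = 0.0486). Of 6 mast cell markers 2 were lower in KO, and the list summed to 28.2 to 52.2 CPM in KO and 84.7 to 401 CPM in KO+NM1. Of 5 melanocyte markers none of the 3 tested passed by edgeR, DESeq2 or voom, nor at an unadjusted p under 0.05 by edgeR, with sums of 0.826 to 20.99 and 2.34 to 2.84 CPM.

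Compared per kilobase of exon, the most abundant members were the same kinds of gene in both groups. Psap stood at 1320 CPM per kb in KO and 917 in KO+NM1, Ctsz at 295 and 187, Ctsd at 286 and 455, Lamp1 at 263 and 228, and Ctsb at 237 and 286. By these means Ctsd lay below Ctsz in KO and above it in KO+NM1. The V-ATPase genes lay lower, from 0.0515 CPM per kb for Atp6v1b1 to 99.9 for Atp6v1g1 in KO, and the transcription factors stood at 3.03 to 11.7 in KO and 3.40 to 8.21 in KO+NM1. The members varied less among pieces of one group in KO (median coefficient of variation 7.23%) than in KO+NM1 (18.3%), as did all genes tested (12.7% and 32.9%).

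Beyond the members, 101 other genes of the lysosome, its sorting machinery, autophagy and TFEB regulation were listed, of which 97 were tested. Past both thresholds 12 were higher and 9 lower in KO (21.6%, against 37.3% of all genes), and by adjusted p alone 22 were higher and 20 lower (43.3%, against 50.2%). Without KO+NM1 piece 01 the counts past both thresholds were 17 higher and 17 lower. In that setting 71.8% of all genes were called by adjusted p alone, against 50.2% in the main fit. Their share past both thresholds is not given, so the rise cannot be read as particular to this list. The median log2 fold change was 0.09. Rragd, a RagD GTPase gene of the nutrient-sensing complex and a known TFEB target, had 8.37, 42.4 and 38.7 CPM in KO and 4.45, 0.610, 0.939 and 1.15 CPM in KO+NM1 (log2 fold change 4.05, SE 0.81, adjusted p = 0.00756). Atg9b, a lipid scramblase gene of autophagosome formation, had 101, 93.5 and 79.0 CPM against 2.41, 5.61, 10.6 and 6.62 CPM (log2 fold change 3.86, SE 0.43, adjusted p = 0.000954). Ctsc, the protease that activates granule enzymes of leukocytes, had 438, 482 and 547 CPM against 184, 75.8, 65.9 and 94.1 CPM (log2 fold change 2.22, SE 0.36, adjusted p = 0.00286). These 3 were the largest rises of the list at a mean of 5 CPM or more, and no KO piece fell within the KO+NM1 range.

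The 3 largest falls of that list were sorting, autophagy and membrane genes. Sort1, the sortilin that carries proteins to the lysosome, had 17.1, 46.3 and 33.1 CPM in KO and 63.9, 325, 380 and 297 CPM in KO+NM1 (log2 fold change -3.05, SE 0.60, adjusted p = 0.00847). Gabarapl1, an ATG8-family gene, had 33.8, 40.1 and 41.5 CPM against 61.8, 189, 179 and 176 CPM (log2 fold change -1.98, SE 0.37, adjusted p = 0.00577). Gpnmb, a glycoprotein gene of lysosomes in macrophages and melanocytes, had 10.9, 21.7 and 12.9 CPM against 20.9, 70.3, 36.0 and 64.8 CPM (log2 fold change -1.66, SE 0.46, adjusted p = 0.0242), with the groups overlapping by the small margin of 21.7 over 20.9 CPM. In Sort1, Gabarapl1 and Gpnmb alike KO+NM1 piece 01 was the lowest of its group and the nearest to KO. The white adipocyte sum was also lowest in that piece among the KO+NM1 pieces, at 3726 CPM against 19925 to 28488 CPM, and its part in these values was not tested.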

How the data were processed

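RNA was sequenced from 3 KO and 4 KO+NM1 tumor pieces. The deposited files hold raw counts per gene, which the authors made with Trimmomatic 0.36, HISAT2 2.0.4 on GRCm38 (mm10), SAMtools 0.1.19 and HTSeq-count. The annotation release and the strand setting are not given in the sources used here, so reads of overlapping genes may be mixed. GENCODE M21 gave the symbols for 46091 of 46603 genes. The members and lists were chosen with earlier results of these data known.

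KO was compared with KO+NM1 by edgeR 4.0.16 (filterByExpr with a minimum count of 10, TMM, quasi-likelihood test, R 4.3.3), and its p-values were adjusted after Benjamini and Hochberg over all 16887 genes tested. The call was an adjusted p under 0.05, alone or with at least a 2-fold change. CPM is TMM-scaled. A level per kb divides it by the union of exons. Paralog shares were compared by two-sided exact permutation tests. DESeq2 1.42.0 and limma 3.58.1 served as alternatives, beside other scalings, a laxer filter, a replicate block and leaving out each piece. Scripts were tested on simulated data. No pair of pieces agreed within sampling noise (chi-square per degree of freedom 35.2 to 687). Same-numbered pieces were not paired by label or donor.

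All 46 members are accounted for. Values in every piece are given for the members past both thresholds, their paralogs and the TFEB family, and for most others. Of the other pathway genes, the 3 largest rises and the 3 largest falls with an adjusted p under 0.05 and a mean of at least 5 CPM are named. Marker lists were used as sums and counts.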

Additional observations from a re-analysis of the deposited data

Results flagged for a closer look

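In the 4 KO+NM1 pieces, 6 of 67 values (the members, the summed marker lists, the paralog shares and 2 medians over sets of members) had one piece so far from the others that its gap, as a ratio to the whole range, passed Dixon's critical value for 4 samples. Chance alone passes that value in about 1 of 20 groups, and the values share libraries. Piece 01 gave 3 of the 6. There Tfeb stood at 101 CPM against 28.4 to 28.6 CPM in pieces 02 to 04 (ratio 0.997), the B cell markers summed to 3504 CPM against 2.75 to 14.2 CPM (ratio 0.997), and the neuron markers summed to 20.2 CPM against 9.44 to 10.7 CPM (ratio 0.887). Piece 02 gave the single count of Atp6v0a4 in its group (ratio 1.0, fixed by construction where the other pieces are at 0, so that it carries no information) and the lowest Npc1, at 36.6 CPM against 46.6 to 48.7 CPM (ratio 0.831). Piece 03 had the highest brown adipocyte sum, at 2832 CPM against 293 to 640 CPM (ratio 0.863). The part of these cell types in the members' values was not tested.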

How the results depend on the processing

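Past both thresholds the 4 higher members became 2 with all genes of at least 1 count, with the replicate block and over 2 to 4 without single pieces, and the 1 lower member became 2 with DESeq2's size factors, with DESeq2's Wald test and over 1 to 2 without single pieces, Atp6v1g2 being the addition. For these settings the share of all genes past both thresholds is not given, so the counts are a description. By adjusted p alone the 15 higher members became 6 with the block and 7 to 18 without single pieces, and the 5 lower became 10 with DESeq2's size factors, 2 with library size alone, 13 by the Wald test, 17 by voom, 2 with the block and 3 to 18 without single pieces. Higher members made up 75.0% of these calls, against 56.5% with DESeq2's size factors, 86.7% with library size alone, 66.7% with genes of at least 1 count, 55.2% by the Wald test and 54.1% by voom. Over all genes 25.7% were called higher and 24.5% lower in the main fit. Those shares were 23.5 and 26.7% with DESeq2's size factors and 27.6 and 20.2% with library size alone. With genes of at least 1 count they were 12.8 and 14.6%, by the Wald test 26.4 and 30.7%, and by voom 41.7 and 35.2%. All genes called numbered 8477 (50.2%), and 12989 (76.9%) by voom, and were 33.7% with the block.

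The V-ATPase median of 0.04 was 0.21 with library size alone and -0.24 to 0.024 without single pieces. The median of the 20 enzymes and membrane genes, 0.46, was 0.36 with DESeq2's size factors and with its Wald test, 0.65 with library size alone, 0.20 by voom and 0.16 to 0.48 without single pieces. The 12 other pathway genes higher in KO became 19 by voom and 11 to 17 without single pieces, and the 9 lower became 6 to 17. The Atp6v1c2 share difference of 0.70 percentage points ran from -2.64 to 2.41 without single pieces.

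Signs turned only in members that had not passed. Atp6v1b2 was -0.061 with DESeq2's size factors, its Wald test and genes of at least 1 count and -0.013 with the block. With library size alone Atp6v1g1 was 0.16, Ctsh 0.072 and Mitf 0.024. By voom Atp6v1c2 was -0.33, Ctsh 0.11, Ctsk -0.032 and Tfeb 0.044, and with the block Mitf was 0.042. Without single pieces Atp6v1b2 ran from -0.15 to 0.024, Atp6v1c2 from -1.45 to 1.48, Ctsh from -0.23 to 0.042 and Ctsk from -0.082 to 0.97. The cause of these changes was not tested.

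The replicate block used the piece numbers, which mark nothing shared: deviations of same-numbered pieces correlated at 0.080, 0.102 and -0.017. It called 6 members higher and 2 lower, where 33.7% of all genes were called. The alternatives leave 1 tumor per group as the limit, which no count depth removes.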
